A study of Solanum lycopersicum with 31 samples.

Results

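Sulfate transporters carry sulfate, the form in which plants take up sulfur, across membranes. This account covers 7 such genes of tomato (Solanum lycopersicum) in leaf RNA, of 31142 genes counted. They were taken by gene name: LOC101246241, LOC101245940, LOC101251560, LOC101250213, LOC101253320, LOC101256192 and ST4.1. The annotation describes 15 genes as sulfate transporters, and the other 8 are given only for comparison. The main contrast among the 7 genes was under the PTB7-Th:IEICO-4F filter. There LOC101250213 had its lowest level when photon flux was held equal. With all libraries that level did not pass the test against the control filter. The scarcely expressed gene LOC101251560 had its highest group means under this filter in both experiments. That is a description only, because the gene entered the test through those groups.

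The study grew wildtype plants of the cultivar Moneymaker beneath filters made of organic solar cell (OSC) blends, thin semiconductor films that absorb part of the light. FI stands for the blend FTAZ:IT-M, FP for FTAZ:PCBM and PI for PTB7-Th:IEICO-4F, and the control filter (C) was spectrally neutral. All plants, controls included, stood in a growth chamber lit by ceramic metal halide and incandescent bulbs. In the PC experiment the photosynthetic photon flux density was controlled, and in the HC experiment the height was controlled. The 8 groups are therefore C_PC, FI_PC, FP_PC, PI_PC, C_HC, FI_HC, FP_HC and PI_HC, with 4 libraries each except PI_HC, which has 3. The libraries come from individual plants, so p-values measure the spread between plants of one growth run and one cultivar. Whole leaf was used, and in such bulk samples fewer cells of a type and less RNA per cell cannot be told apart.

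Plant sulfate transporters form several groups, best known from Arabidopsis. Members of the first group have high affinity and take sulfate into roots or load it into the phloem. Members of the second group have low affinity and work in the vascular tissue. Group 3 proteins of Arabidopsis have been placed at the chloroplast envelope, where sulfate enters the compartment that reduces it, and group 4 proteins release sulfate from the vacuole. Inside the cell, ATP sulfurylase activates sulfate, adenylylsulfate reductase and sulfite reductase reduce it, and cysteine synthase builds it into cysteine. When sulfur is scarce, plants raise many transporters and the reductase together with marker genes named RESPONSE TO LOW SULFUR and SULFUR DEFICIENCY-INDUCED.

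The identity of each gene is as follows, with coordinates of the genome build SL3.0 that the files use. LOC101246241, described as sulfate transporter 1.3, lies on chromosome 4 from 59814827 to 59820168 on the plus strand and has 14 exons. LOC101245940, described as low affinity sulfate transporter 3, lies 16148 bases away on the minus strand, from 59794837 to 59798678, with 1 gene between them. LOC101251560, described as low affinity sulfate transporter 3-like, lies on chromosome 12 from 63930811 to 63935541 on the minus strand and has 12 exons. The name of these low affinity genes comes from the legume Stylosanthes. LOC101250213, described as probable sulfate transporter 3.3, lies on chromosome 5 from 2404457 to 2409028 on the plus strand and has 13 exons. LOC101253320 and LOC101256192 are both described as sulfate transporter 3.1-like and have 12 exons each. The former lies on chromosome 9 from 68691652 to 68697482 on the minus strand, and the latter on chromosome 6 from 49409765 to 49413885 on the plus strand. ST4.1, whose description reads probable sulfate transporter 4.2-like, lies on chromosome 5 from 65441424 to 65449780 on the plus strand and has 17 exons.

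Exon lengths recurred across the genes. Exons of exactly 66 and 77 bases occur in 7 of 7 genes. Exons of 127, 208 and 287 bases occur in 6 genes, all but ST4.1. An exon of 172 bases occurs in the 3 group 3 genes, and exons of 178 and 231 bases occur in the 2 low affinity genes. Equal lengths are a description of the annotation and not of sequence identity.

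The counts rest on fragments that lie within 1 annotated exon, because each exon record was counted on its own and a fragment touching several records was counted for none. For 6 of the 7 genes no exon record overlaps another, and the whole exon length, from 2168 to 2732 bases, could collect counts. LOC101245940 has 2 annotated transcripts that list nearly the same exons, so 22 of its 23 records overlap another. All of its counts, a median of 36 in each library, come from a single record of 66 bases. Of the 2 transcripts only 1 lists this record, so the counts follow that transcript and not the whole gene. They can be compared between groups but not with the levels of other genes over their whole exon length. The level is 37.1 CPM per kilobase (CPM being counts scaled to a common library total) by the record that counted and 0.575 by all records. Exons under 100 bases collected fewer counts per kilobase than exons of 200 bases or more in each of the 6 other genes, for example 265 against 757 mean counts in ST4.1.

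**Figure D1:**
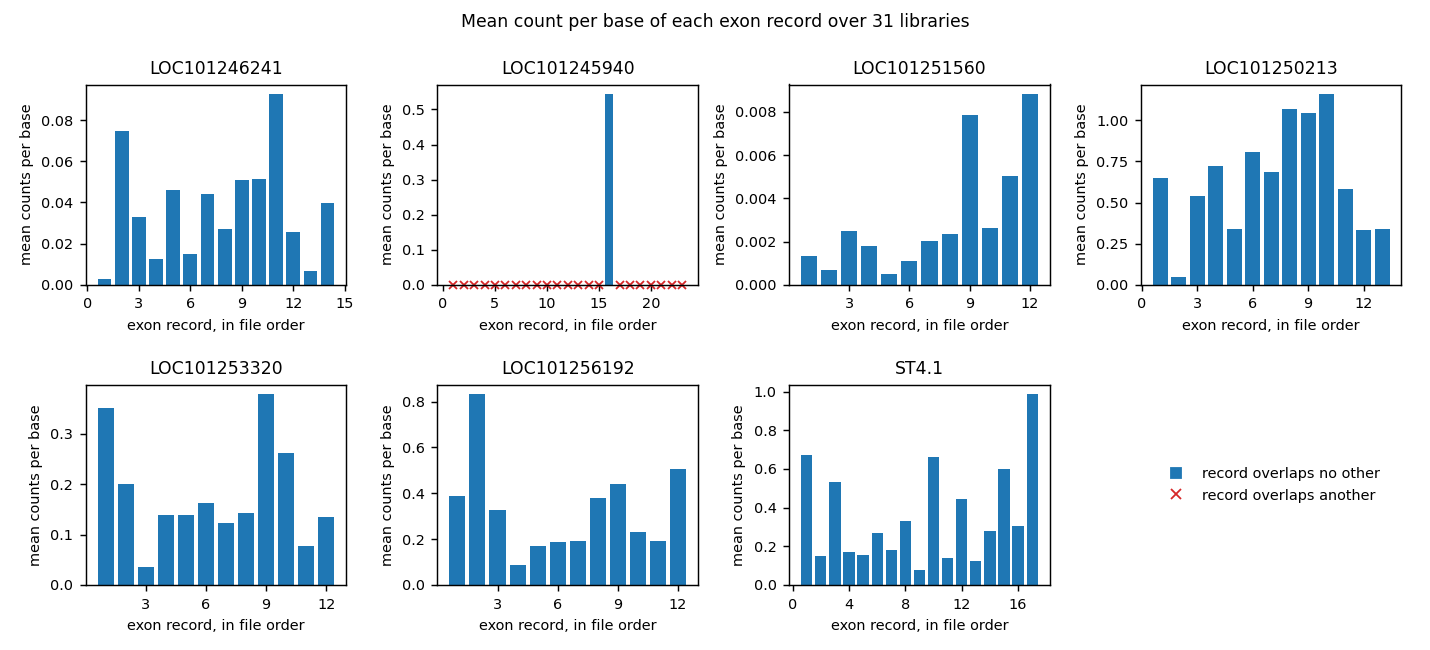
Mean count per base over 31 libraries (y axis) of each exon record of the 7 genes, in the order of the annotation (x axis). Blue bars are records that overlap no other record and red crosses mark records that overlap another. In LOC101245940 only 1 of 23 records, 66 bases long, holds counts.

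Library totals were 13671052 to 15210356 counts, so that 3 counts, the floor used here, are 0.197 to 0.219 CPM. Intervals and floors cover counting error only. For 3 libraries the label and the block code in the file's own identifier point to different groups: the one labelled C_PC 4, the one labelled PI_PC 4 and the one labelled FP_PC 4. They are called the conflicting libraries, and the tests of the 7 genes in their groups are given with and without them, by gene where a call changed and otherwise as counts. In a principal component analysis of the 2000 genes with most variance, the first component held 28.5% of it, and on it PI_PC 2, PI_PC 3 and the library labelled C_PC 4 lay at -60.2, -58.6 and -61.7. The other 28 libraries lay between -15.8 and 30.2. The same 3 libraries had a summed level of 21 leaf mesophyll markers of 18073 to 18789 CPM, against 24751 to 73993 CPM in the other 28, so leaf markers were high in all libraries but lowest in these. The part of this difference in the results below was not tested.

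LOC101250213 had the highest level among the 6 fully counted genes, with a mean of 47.0 CPM per kilobase (SD 8.53, n = 31 libraries). ST4.1 followed with 33.3 (SD 5.42) and LOC101256192 with 27.3 (SD 9.50). LOC101253320 reached 13.6 (SD 5.15) and LOC101246241 2.78 (SD 1.08), and LOC101251560 reached 0.222 (SD 0.197). All gene levels in CPM, those per kilobase included, are scaled by the trimmed mean of M values (TMM). Of these 6 genes, the group 3 gene LOC101250213, the group 4 gene ST4.1 and the 3.1-like gene LOC101256192 thus had the highest levels. LOC101245940 could not be ranked among them. Its 66-base record held 0.544 mean counts per base. The 66-base exons held less in LOC101250213 (0.340), ST4.1 (0.156 and 0.333) and LOC101256192 (0.0890). Among the other genes described as sulfate transporters, LOC101264062 (25.4 CPM per kilobase) and LOC101267799 (23.2) lay close to LOC101256192. The coefficient of variation over the 31 libraries was lowest for ST4.1 (16.3%) and LOC101250213 (18.1%) and highest for LOC101251560 (88.7%).

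**Figure D2:**
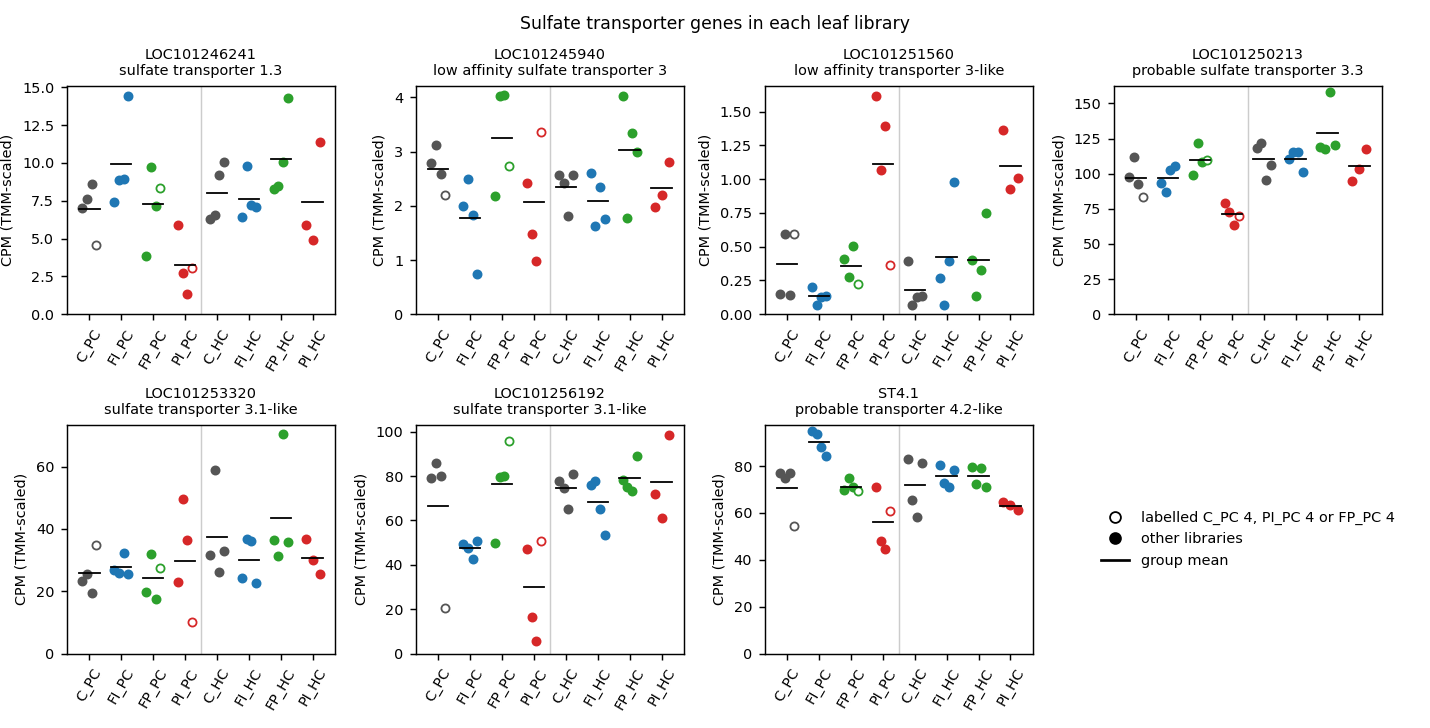
TMM-scaled CPM of each gene (y axis, from 0) in each library, by group (x axis), with a black line at the group mean. Open circles are the libraries labelled C_PC 4, PI_PC 4 and FP_PC 4. The 4 PI_PC values of LOC101250213 (63.2 to 79.0 CPM) lie below all other libraries, and the PI groups of LOC101251560 reach 1.61 CPM.

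Whether a level differed anywhere among the 8 groups was asked first, with edgeR's quasi-likelihood F test and Benjamini-Hochberg adjustment over 16209 genes. At an adjusted p under 0.05, 4 of the 7 genes differed, against 10.4% of all genes tested. LOC101250213 had the smallest adjusted p (edgeR, 0.000743), followed by LOC101251560 (0.0089), ST4.1 (0.0195) and LOC101246241 (0.0451). The adjusted p was 0.175 for LOC101256192, 0.392 for LOC101245940 and 0.473 for LOC101253320. LOC101250213 passed with each of the 31 libraries left out in turn. LOC101251560 entered the test through the PI groups where it is high, so its call is given as a description. ST4.1 missed the threshold in 3 of the 31 such fits, with FI_PC 2, PI_PC 2 or PI_PC 3 left out (adjusted p up to 0.0534). LOC101246241 missed it in 22 of the 31 (adjusted p up to 0.150). With the conflicting libraries left out, LOC101256192 passed (edgeR adjusted p = 0.0105) and LOC101246241 did not (0.0593), where 25.4% of all genes passed. With PI_PC 2, PI_PC 3 and the library labelled C_PC 4 left out, LOC101256192 (0.00492) and LOC101253320 (0.0448) passed and LOC101246241 did not (0.236), where 15.9% of all genes passed.

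The high affinity type gene LOC101246241 was weakly expressed in leaf. In Arabidopsis the transporter of this name works in the phloem. Its level was lowest in PI_PC, where the 4 libraries read 5.92, 2.74, 1.34 and 3.06 CPM. The C_PC libraries read 7.02, 7.59 and 8.58 CPM, and the one labelled C_PC 4 read 4.56 CPM. The PI_PC values lie below the 3 undoubted C_PC libraries, but PI_PC 1 lies above the library labelled C_PC 4. The group means were 6.93 ± 1.71 CPM in C_PC and 3.26 ± 1.92 in PI_PC (SD, n = 4 each). In the other groups they ran from 7.28 ± 2.51 in FP_PC and 7.41 ± 3.47 in PI_HC (n = 3) through 7.63 ± 1.48 in FI_HC and 8.02 ± 1.87 in C_HC to 9.92 ± 3.1 in FI_PC and 10.3 ± 2.78 in FP_HC. Every pair of neighbours in this order overlapped in range. The log2 fold change of PI_PC against C_PC was -1.09 (SE 0.35), which did not pass (edgeR adjusted p = 0.137). Without the conflicting libraries it was -1.23 (SE 0.40) and passed (edgeR adjusted p = 0.0230). PI_HC against PI_PC gave 1.19 (SE 0.37, edgeR adjusted p = 0.0683), and 1.16 (SE 0.40, adjusted p = 0.0488) without the conflicting libraries.

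LOC101245940, the first of the low affinity genes, showed no difference that passed a test. Its values rest on the 1 record that counted, which only 1 of its 2 transcripts lists. Its group means lay between 1.77 ± 0.74 CPM in FI_PC and 3.25 ± 0.95 in FP_PC, a ratio of 1.84. Between them were PI_PC (2.06 ± 1.05), FI_HC (2.09 ± 0.47), PI_HC (2.33 ± 0.43, n = 3), C_HC (2.34 ± 0.36), C_PC (2.68 ± 0.39) and FP_HC (3.04 ± 0.94). The ranges of all 7 neighbouring pairs overlapped. Each library held 11 to 60 counts of it. In PI_PC against C_PC the log2 fold change was -0.38 (SE 0.33, edgeR adjusted p = 0.616), and -0.80 (SE 0.36, adjusted p = 0.0996) without the conflicting libraries.

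LOC101251560, the second low affinity gene, held 1 to 15 counts a library outside the PI filter. The highest there were 15 counts in FI_HC (0.979 CPM) and 11 in FP_HC (0.750 CPM). The FI_HC range thus overlapped that of PI_HC (0.930 to 1.36 CPM). The PI_HC libraries held 20, 14 and 14 raw counts and the C_HC libraries 6, 1, 2 and 2. The PI_PC libraries held 24, 18 and 24, and the one labelled PI_PC 4 held 5. The C_PC libraries held 2, 8 and 2, and the one labelled C_PC 4 held 10. All PI_HC libraries thus lay above all C_HC libraries, while the PI_PC and C_PC ranges met only through the doubtful libraries. As CPM, the means were 1.10 ± 0.23 in PI_HC (n = 3) and 1.11 ± 0.55 in PI_PC, against 0.133 ± 0.0543 in FI_PC, 0.182 ± 0.146 in C_HC, 0.353 ± 0.128 in FP_PC, 0.371 ± 0.258 in C_PC, 0.404 ± 0.256 in FP_HC and 0.427 ± 0.391 in FI_HC (n = 4 each).

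LOC101251560 entered the test through the groups where it is high: 8 libraries reached the cut-off of 0.672 CPM, and 6 of them were under the PI filter. The following values therefore describe the libraries and support nothing further. In PI_HC against C_HC the log2 fold change was 2.54 (SE 0.65, edgeR adjusted p = 0.0367). It was the only 1 of the 7 genes past the threshold there, where 2.1% of all genes passed. With no low-count filter the adjusted p was 0.0539, and a filter of at least 10 counts in every library removed LOC101251560. The ratio of the pooled counts, 48 against 11, was 6.03 with a 95% counting interval of 3.09 to 12.9. In 6 of the 7 fits that left out 1 of these libraries the adjusted p exceeded 0.05 (0.0664 to 0.130, log2 fold change 2.28 to 2.65), and only the fit without C_HC 1 passed (3.22, edgeR adjusted p = 0.0395). With the replicate number as a block it was 0.0597. In PI_PC against C_PC the log2 fold change was 1.55 (SE 0.56, edgeR adjusted p = 0.193), with a ratio of pooled counts, 71 against 22, of 2.96 (95% counting interval 1.82 to 5.02). Without the conflicting libraries it was 2.17 (SE 0.63, edgeR adjusted p = 0.0115). PI_HC against PI_PC did not pass (log2 fold change -0.02, SE 0.55, edgeR adjusted p = 0.990), nor did it without the conflicting libraries (-0.30, SE 0.54, adjusted p = 0.758).

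LOC101250213 is the most abundant of the group 3 genes. Its PI_PC libraries read 79.0, 72.9, 63.2 and 69.9 CPM. The C_PC libraries read 98, 112, 92.9 and, for the one labelled C_PC 4, 83.7 CPM, and the PI_HC libraries 94.6, 103 and 118 CPM. All 4 PI_PC libraries thus lay below all C_PC and all PI_HC libraries. The group means in order were PI_PC 71.2 ± 6.56, C_PC 96.6 ± 11.7, FI_PC 97.0 ± 8.48, PI_HC 105 ± 11.7 (n = 3), FP_PC 109.7 ± 9.16, C_HC 110.4 ± 12.0, FI_HC 110.5 ± 6.77 and FP_HC 129 ± 19.4 CPM. Of the 7 neighbouring pairs, 2 did not overlap: PI_PC with C_PC at the bottom, and FI_HC with FP_HC at the top.

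LOC101250213 rose from PI_PC to PI_HC by a log2 fold change of 0.56 (SE 0.12), a fold of 1.48 (edgeR adjusted p = 0.0101). It was the only 1 of the 7 genes past the threshold in this comparison, where 3.49% of all genes passed. LOC101250213 was also higher in HC than in PC under C (0.19), FI (0.19) and FP (0.23), none of which passed. The difference between the PI effects in the 2 experiments was 0.37 (SE 0.16) and did not pass (edgeR adjusted p = 0.286). The rise is therefore not shown to be particular to the PI filter. The call in PI_HC against PI_PC held without the conflicting libraries (0.55, edgeR adjusted p = 0.00562) and without PI_PC 2, PI_PC 3 and the library labelled C_PC 4 (0.50, 0.0439), where 15.5% and 3.97% of all genes passed. It was lost without PI_HC 4 (0.47, 0.122), without PI_PC 3 (0.50, 0.0554) and when the 2 groups were fitted alone (0.54, 0.168). In PI_PC against C_PC the log2 fold change was -0.44 (SE 0.11, edgeR adjusted p = 0.0694), and without the conflicting libraries -0.49 (SE 0.13, adjusted p = 0.00571). The exons moved together: 12 of 12 exon records with a mean of at least 10 counts were lower in PI_PC than in C_PC, and 12 of 12 were higher in PI_HC than in PI_PC. Exon records of a gene, here and for the genes below, come from the same libraries, so their agreement adds no replication.

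LOC101256192, one of the 3.1-like genes, had the widest spread of the abundant genes. Its PI_PC libraries read 47.2, 16.4, 5.76 and, for the one labelled PI_PC 4, 50.8 CPM. Its C_PC libraries read 79.1, 85.9 and 80.3 CPM, but the one labelled C_PC 4 read 20.4 CPM. PI_PC 2, PI_PC 3 and the library labelled C_PC 4, which stand apart on the first principal component, were the 3 lowest of all 31. The FI_PC libraries lay close together at 49.5, 47.5, 42.8 and 50.7 CPM.

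The group means of LOC101256192 in order were PI_PC 30.0 ± 22.4, FI_PC 47.6 ± 3.5, C_PC 66.4 ± 30.8, FI_HC 68.2 ± 11.3, C_HC 74.6 ± 6.86, FP_PC 76.4 ± 19.2, PI_HC 77.2 ± 19.2 (n = 3) and FP_HC 79.0 ± 7.15 CPM, and all neighbours overlapped. PI_PC against C_PC gave a log2 fold change of -1.15 (SE 0.40, edgeR adjusted p = 0.178). Without the conflicting libraries it was -1.83 (SE 0.37, edgeR adjusted p = 0.000943), and without the 3 libraries that stand apart -0.75 (SE 0.20, adjusted p = 0.0510). PI_HC against PI_PC gave 1.37 (SE 0.43, edgeR adjusted p = 0.0713), and 1.74 (adjusted p = 0.00330) without the conflicting libraries. FI_PC against C_PC gave -0.48 (SE 0.40, edgeR adjusted p = 0.622), and -0.78 (SE 0.33, adjusted p = 0.161) without the conflicting libraries. Without the 3 libraries that stand apart it was -0.79 (SE 0.16) and passed (edgeR adjusted p = 0.00291), as did 9.35% of all genes. In all libraries, 10 of 10 exon records with enough counts were lower in PI_PC than in C_PC.

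LOC101253320, the other 3.1-like gene, ranked the libraries differently. Its PI_PC libraries read 22.8, 49.6, 36.5 and, for the one labelled PI_PC 4, 10.1 CPM, so PI_PC 2 and PI_PC 3 were its 2 highest there and not its lowest. The C_PC libraries read 23.2, 25.4, 19.3 and, for the one labelled C_PC 4, 34.9 CPM. The log2 fold change of PI_PC against C_PC was 0.21 (SE 0.33, edgeR adjusted p = 0.810), with 6 exon records higher and 4 lower. It was 0.68 without the conflicting libraries and -0.47 without the 3 that stand apart, neither past the threshold (edgeR adjusted p = 0.107 and 0.616). The group means were FP_PC 24.2 ± 6.71, C_PC 25.7 ± 6.61, FI_PC 27.6 ± 3.25, PI_PC 29.8 ± 17.1, FI_HC 30.0 ± 7.48, PI_HC 30.8 ± 5.54 (n = 3), C_HC 37.4 ± 14.6 and FP_HC 43.4 ± 18.1 CPM, and all neighbours overlapped.

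ST4.1 belongs to the group that in Arabidopsis empties the vacuole of sulfate. Its FI_PC libraries read 95, 93.5, 88.2 and 84.1 CPM, and its C_PC libraries 76.9, 74.9, 77 and, for the one labelled C_PC 4, 54.5 CPM. All FI_PC libraries thus lay above all C_PC libraries and above all FI_HC libraries, which read 80.5, 72.7, 71.1 and 78.2 CPM. The group means were PI_PC 56.2 ± 12.2, PI_HC 63.0 ± 1.80 (n = 3), C_PC 70.8 ± 10.9, FP_PC 71.2 ± 2.52, C_HC 71.9 ± 12.1, FP_HC 75.6 ± 4.61, FI_HC 75.6 ± 4.44 and FI_PC 90.2 ± 5.0 CPM. FI_HC and FI_PC, the top pair, were the 1 pair of neighbours that did not overlap. The single comparisons did not pass. FI_PC against C_PC gave a log2 fold change of 0.35 (SE 0.13, edgeR adjusted p = 0.151), and 0.24 (adjusted p = 0.245) without the conflicting libraries. FI_HC against FI_PC gave -0.25 (SE 0.12, edgeR adjusted p = 0.811). PI_PC against C_PC gave -0.33 (SE 0.13, edgeR adjusted p = 0.207), with 13 of 13 exon records lower. Without the conflicting libraries it was -0.48 (SE 0.13) and passed (edgeR adjusted p = 0.00857).

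**Figure D3:**
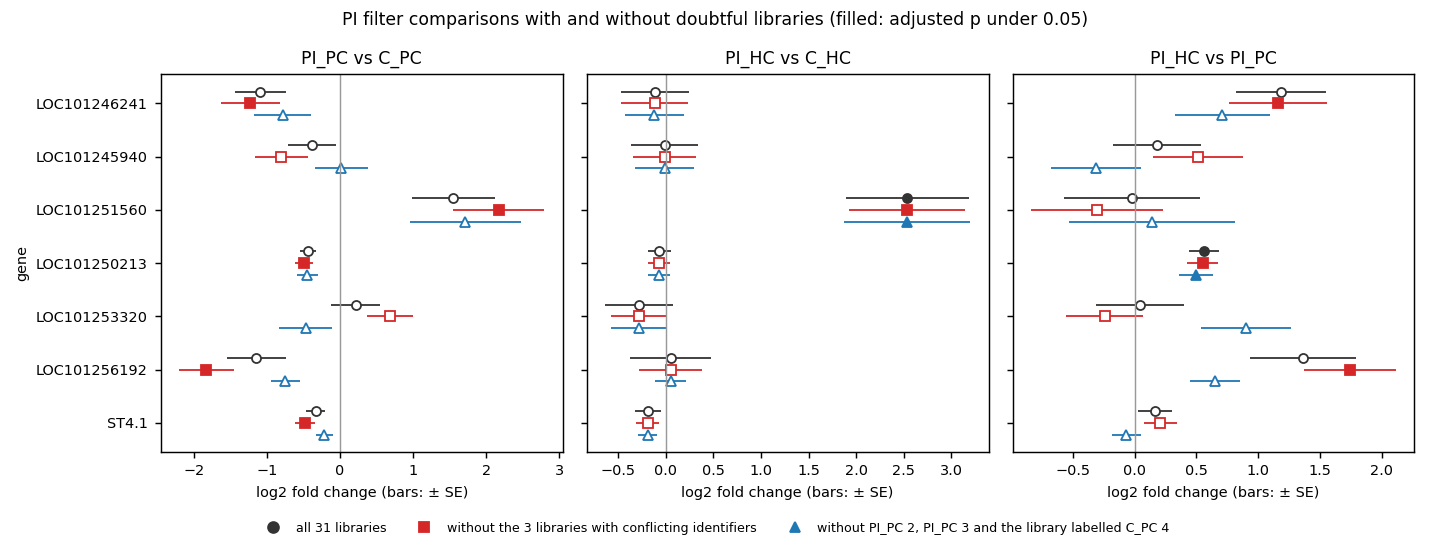
Log2 fold changes (x axis, bars ± SE) of the 7 genes (y axis) in 3 comparisons of the PI filter, fitted with all 31 libraries (circles), without the 3 libraries with conflicting identifiers (squares) and without PI_PC 2, PI_PC 3 and the library labelled C_PC 4 (triangles). Filled symbols have an edgeR adjusted p under 0.05. In PI_PC against C_PC no circle and 5 squares are filled.

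Among the comparisons, the PI filter at controlled photon flux held the most transporter genes at an unadjusted p under 0.05. In PI_PC against C_PC 5 of 7 fold changes were below 0, with a median log2 fold change of -0.38 against 0.01 over all genes tested. None of the 7 passed edgeR's adjusted threshold, where 0.296% of all genes did. An unadjusted p under 0.05 was found for 5 of the 7 and for 14.5% of all genes, and DESeq2 called 2 (LOC101246241 and LOC101250213) where it called 2.3% of all genes. LOC101251560 is in this count of 5, and in those below, only as a description. It entered the test through the PI groups where it is high. Without the conflicting libraries 5 of 7 passed: LOC101246241, LOC101250213, LOC101256192 and ST4.1 lower and LOC101251560 higher. In that fit 28.8% of all genes passed. The same 5 passed when the library labelled C_PC 4 alone was left out, where 14.8% of all genes passed. Without the 3 libraries that stand apart none passed edgeR's threshold, where 1.93% of all genes did. In PI_HC against C_HC the median was -0.07, against 0.00 over all genes, and the fold changes of the 6 genes other than LOC101251560 lay between -0.28 and 0.05.

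Between the experiments under the PI filter 6 of 7 genes were higher in PI_HC than in PI_PC, with a median log2 fold change of 0.18 against -0.01 over all genes tested. DESeq2 called LOC101246241, LOC101250213 and LOC101256192 there, and 6.79% of all genes. The difference between the PI effects in the 2 experiments was tested directly, as the log2 fold change of PI against C in HC minus that in PC. By edgeR none of the 7 passed, where 0.802% of all genes did, 2 had an unadjusted p under 0.05, as had 14.7% of all genes, and DESeq2 called 0 of the 7 and 2.76% of all genes. Without the conflicting libraries LOC101256192 passed, with a difference of 1.88 (SE 0.50, edgeR adjusted p = 0.0122), where 17.4% of all genes passed.

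With all 31 libraries the FI and FP filters gave no call among the 7 genes by edgeR or DESeq2. The call of LOC101256192 in FI_PC against C_PC given above was made without the 3 libraries that stand apart. In FI_PC against C_PC 2.26% of all genes passed edgeR's threshold and 4.03% passed DESeq2's, and 1 of the 7 genes, ST4.1, had an unadjusted p under 0.05, as had 15.8% of all genes. The fold changes were 4 above and 3 below 0, with a median of 0.01 on the log2 scale against -0.03 over all genes. In FP_PC against C_PC 0% of all genes passed by edgeR and 0.0247% by DESeq2, and in FI_HC against C_HC 0% and 0.0123%, with 0 unadjusted p under 0.05 among the 7 in either by either tool, against 4.03% and 5.19% of all genes by edgeR. In FP_HC against C_HC 0.037% of all genes passed by edgeR and 0.0925% by DESeq2, and the 7 fold changes were all above 0, with a median log2 fold change of 0.22 against 0.00 over all genes, but no unadjusted p of edgeR was under 0.05, against 6.75% of all genes. The largest was 1.11 (SE 0.67) in LOC101251560 and the smallest 0.07 (SE 0.13) in ST4.1.

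With all 31 libraries and between the experiments without the PI filter the 7 genes gave no call by edgeR or DESeq2 either. C_HC against C_PC had 0.308% of all genes past edgeR's threshold, 1.92% past DESeq2's and 0 of the 7 with an unadjusted p under 0.05, against 13.1% of all genes. FI_HC against FI_PC had 0.111% and 0.259% of all genes and, by edgeR, 1 of the 7, LOC101251560, with an unadjusted p under 0.05, as had 6.16% of all genes. FP_HC against FP_PC had 0.0494% and 0.42% of all genes past the thresholds, and 2 of the 7, LOC101250213 and LOC101253320, and 8.09% of all genes at an unadjusted p under 0.05. The difference between the FI effects passed for 1.19% of all genes by edgeR and 2.75% by DESeq2, and had 1 of the 7, LOC101251560, and 14.3% of all genes at an unadjusted p under 0.05. The difference between the FP effects passed for 0% of all genes by either tool and had 0 of the 7 and 3.66% of all genes at an unadjusted p under 0.05. EdgeR without the conflicting libraries called none of the 7 in FI_PC against C_PC, C_HC against C_PC, FP_HC against FP_PC and the difference between the FI effects, where 6.35%, 1.76%, 0.844% and 3.48% of all genes passed. It called none in FP_PC against C_PC and in the difference between the FP effects either, where 0% of all genes passed.

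**Figure D4:**
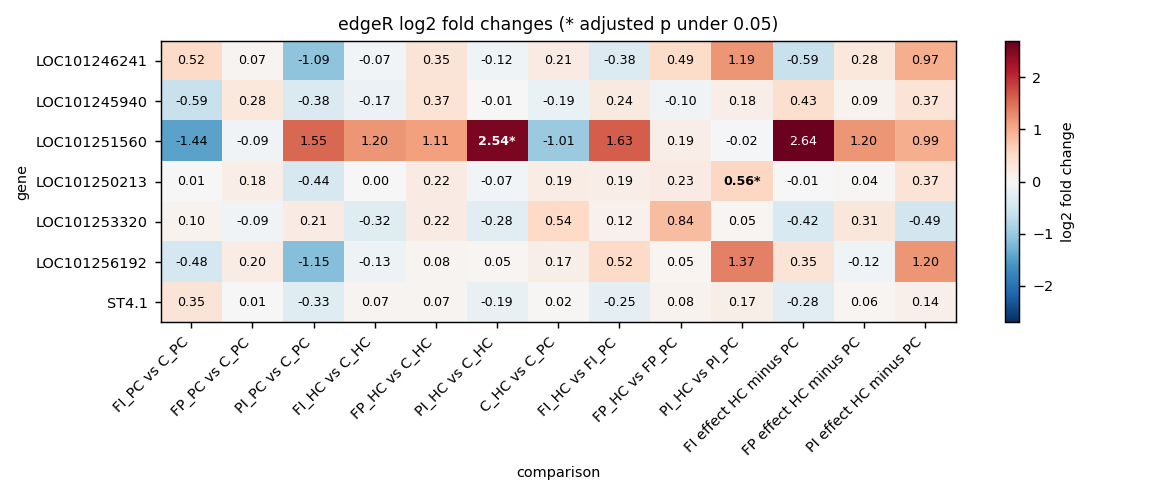
Log2 fold changes (colour and number) of the 7 genes (rows) in 13 comparisons (columns), from 1 edgeR fit of all 31 libraries. Stars mark an adjusted p under 0.05: LOC101251560 in PI_HC against C_HC (2.54) and LOC101250213 in PI_HC against PI_PC (0.56).

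The genes that reduce and assimilate sulfate were read beside the transporters. Of 42 genes of sulfate assimilation and sulfur deficiency, 35 were tested. In FI_PC against C_PC 8 of them rose and 3 fell (edgeR, adjusted p under 0.05), where none of the 7 transporters and 2.26% of all genes passed. The counts were 10 and 3 without the conflicting libraries, among 6.35% of all genes. With the 2 groups fitted alone 3 of 32 rose and 0 fell, among 0.102% of all genes. In the fit of all 31 libraries the adenylylsulfate reductase gene LOC101257319 rose in FI_PC against C_PC by a log2 fold change of 2.19 (SE 0.26). The SULFUR DEFICIENCY-INDUCED gene LOC101258461 rose by 3.03 (SE 0.38). The edgeR adjusted p was 3.9e-05 and 4.6e-05. In PI_HC against C_HC 7 of the 35 fell and 0 rose, where 2.1% of all genes passed. LOC101257319 decreased by 2.27 (SE 0.29, edgeR adjusted p = 0.000107) on the log2 scale there. LOC101243970, a RESPONSE TO LOW SULFUR gene, rose by 1.25 (SE 0.24, adjusted p = 0.00577) in FI_PC, a call lost with the 2 groups fitted alone (adjusted p = 0.146), and decreased by 1.35 (SE 0.27, adjusted p = 0.00738) in PI_HC. The fall was not particular to PI_HC. In FP_HC against C_HC 3 of the 35 fell, where 0.037% of all genes passed. There LOC101243970 changed by -1.58 and LOC101257319 by -1.41 (edgeR adjusted p = 0.0103 and 0.0328). In FI_HC LOC101243970 changed by -1.14 (adjusted p = 0.462). LOC101257319 was higher in C_HC than in C_PC by 1.34 (adjusted p = 0.0114). The list was drawn up with earlier results of these data known, so its direction is no independent evidence.

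A mean log2 level was taken over the 8 sulfur genes with the smallest p in the 8-group test. They were LOC101257319, LOC101258461, LOC101252466, LOC101260472, LOC101243970, LOC101055609, LOC101258787 and LOC101259958. They were thus picked for differing among these same groups. Over the 31 libraries this mean had a Pearson r of 0.457 with ST4.1 and -0.537 with LOC101251560. The r was 0.234 with LOC101246241, 0.101 with LOC101253320, -0.0154 with LOC101250213, -0.106 with LOC101256192 and -0.337 with LOC101245940. These values are descriptions over libraries that share groups and the 3 libraries that stand apart.

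Of the other 8 genes described as sulfate transporters, 4 were expressed enough to be tested. LOC101264062, described as sulfate transporter 3.1, fell in PI_PC, where its 4 libraries read 22.1 to 30.8 CPM, against 34.6 to 84.4 CPM in C_PC. The log2 fold change was -1.16 (SE 0.22, edgeR adjusted p = 0.0251), and the gene rose from PI_PC to PI_HC by 1.36 (SE 0.23, adjusted p = 0.00247). Both calls held without the conflicting libraries (-1.44 and 1.46, adjusted p = 0.000127 and 0.000333) and were lost when the compared groups were fitted alone (adjusted p = 0.847 and 0.0828). LOC101267799, described as sulfate transporter 2.1-like, had means of 25.2 ± 9.29 CPM in PI_PC and 38.7 ± 14.5 in C_PC, a log2 fold change of -0.62 (SE 0.25) that did not pass (edgeR adjusted p = 0.244). It was -0.84 (SE 0.23) and passed without the conflicting libraries (edgeR adjusted p = 0.00915). From PI_PC to PI_HC the log2 fold change of LOC101267799 was 0.89 (SE 0.27, edgeR adjusted p = 0.0597), which passed by DESeq2 (adjusted p = 0.0294) and, at 0.86, without the conflicting libraries (edgeR adjusted p = 0.0151). LOC101265010 and ST2 passed in none of the 13 comparisons with all libraries. LOC101245923 and LOC101248282 had 7 and 25 counts in all 31 libraries together, and LOC101261992 had 0, which allows up to 3 counts. ST1 had 0 counts, but none of its exon records is free of overlap, so its level cannot be read from these counts.

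The genes with the most similar pattern over the 31 libraries were named for each transporter by the highest Pearson r of log2 CPM among all genes tested. For ST4.1 it was LOC101256557, an ATP sulfurylase of the chloroplast, the enzyme that activates sulfate, with r = 0.847. Within groups the r was 0.757. For LOC101256192 it was LOC101265391, a mannan endo-1,4-beta-mannosidase, with r = 0.931, and r was 0.886 within groups. For LOC101246241 it was LOC101248301, a zeatin O-xylosyltransferase-like gene, with r = 0.863. LOC101251223, a ferric reduction oxidase, was second for both LOC101246241 (0.854) and LOC101250213 (0.842), and LOC101261299 was first for LOC101250213 (0.847). The highest r was lower for LOC101251560 (0.778 with LOC101246670), LOC101253320 (0.770 with LOC104649705) and LOC101245940 (0.71 with LOC101263642). These r values come from choosing among 16209 genes and describe the libraries only.

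**Figure D5:**
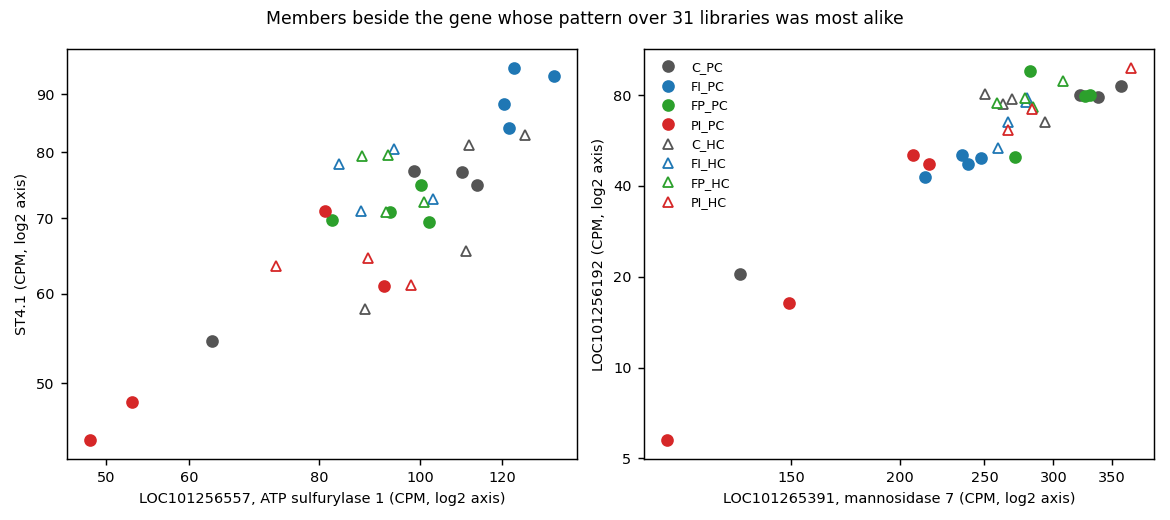
Level of ST4.1 against the ATP sulfurylase gene LOC101256557 (left) and of LOC101256192 against the mannosidase gene LOC101265391 (right), in CPM on log2 axes, with 1 point for each of 31 libraries, filled circles for PC and open triangles for HC. The r of log2 CPM is 0.847 on the left and 0.931 on the right, and PI_PC 2, PI_PC 3 and the library labelled C_PC 4 sit at the lower left of both.

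Among the transporters themselves the closest pairs were LOC101246241 with LOC101256192 (r = 0.770), LOC101250213 with LOC101256192 (0.747) and LOC101246241 with LOC101250213 (0.731). Without PI_PC 2, PI_PC 3 and the library labelled C_PC 4 these values were 0.346, 0.578 and 0.518. In that set of 28 libraries the highest value was between LOC101250213 and LOC101253320, at 0.768, which was 0.397 over all 31. The 2 genes described as 3.1-like had an r of -0.137 over all 31, and the neighbours on chromosome 4 an r of 0.234. Both changed sign in the set of 28 libraries, to 0.278 and -0.206. LOC101251560 had an r of -0.536 with ST4.1 over all 31 libraries, -0.370 in the set of 28 and -0.0385 within groups.

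Markers of other tissues and cell types were also read. Guard cell markers, 3 genes, summed to 22.2 to 34.9 CPM in PI_PC against 29.8 to 55.6 CPM in C_PC and 32.7 to 49.6 CPM in PI_HC. They were thus low in the same group as LOC101250213, LOC101246241 and LOC101256192, and their part in those results was not tested. The sum was 22.2 to 29.8 CPM in PI_PC 2, PI_PC 3 and the library labelled C_PC 4, against 27.4 to 55.6 CPM in the other 28. Only 1 of the 3 guard cell genes was expressed enough to be tested. This gene rose from PI_PC to PI_HC, with a log2 fold change of 0.66 (edgeR, adjusted p under 0.05). The 36 xylem markers summed to 199 to 405 CPM in PI_PC and 198 to 314 in C_PC, and to 146 to 194 in PI_HC and 175 to 199 in C_HC. The 20 phloem markers summed to 466 to 749 CPM in PI_PC and 507 to 632 in C_PC. Of these lists 4 xylem and 3 phloem genes were at 0 counts. The 7 root endodermis markers summed to at most 3.66 CPM in any library, with 1 gene at 0.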

How the data were processed

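Leaf RNA of 31 tomato plants was poly(A)-selected and sequenced on a DNBSEQ platform, per the labels' protocols. The deposited values are raw counts of read pairs for each exon record, made by the authors with featureCounts 2.0.1, reverse-stranded, on RefSeq exons of build SL3.0, per the file headers. The submitters' processing notes also name FastQC, HISAT2 and DESeq2. Of 310488 exon records 66.9% overlap another record on the same strand, and these hold 0.756% of all counts. Counts in records with no gene name, 0.0346% of all, were left out.

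Records were summed to 31142 genes. The main test was edgeR 4.0.16 in R 4.3.3 (quasi-likelihood, TMM scaling, filterByExpr with a minimum count of 10), with all 31 libraries in 1 fit and 1 mean per group. It tested 16209 genes, the 7 transporters included. Each of 13 comparisons and the 8-group test was adjusted by Benjamini-Hochberg at 0.05. The SE is the log2 fold change over the square root of F. Pearson r used log2 CPM with a prior count of 2. Fits were tested on simulated data. Groups came from the labels. The 45 replicate pairs within groups differed beyond sampling noise (chi-square per gene 9.98 to 227).

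All 7 genes are named. Of the sulfur genes, the 8 with the smallest p in the 8-group test could be named, and for each transporter the 2 genes of highest r. The transporters and lists were chosen with earlier results of these data known. Alternatives were DESeq2 size factors, the DESeq2 1.42.0 test, other low-count filters, a block for the replicate number, the compared groups alone, the 3 conflicting libraries left out, and single libraries left out in turn. Leaving out PI_PC 2, PI_PC 3 and the library labelled C_PC 4 was chosen after seeing the data. RefSeq names came from a table of another assembly (SLM_r2.1), in which 7 of 7 transporters were found. Sequences were not used here.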

Additional observations from a re-analysis of the deposited data

Results flagged for a closer look

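Of 49 checks of the highest or lowest library against the rest of its group of 4, 4 found a library far from the others, and chance gives about 1 in 20. In FP_HC, replicate 3 had 158 CPM of LOC101250213, against 118 to 121 CPM in the other 3 plants. The same plant had 70.3 CPM of LOC101253320, against 31.2 to 36.3 CPM. In C_PC, the library labelled replicate 4 had 20.4 CPM of LOC101256192, against 79.1 to 85.9 CPM, and 54.5 CPM of ST4.1, against 74.9 to 77 CPM. That library is one of the 3 with conflicting identifiers and one of the 3 that stand apart on the first principal component.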

How the results depend on the processing

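The number of the 7 genes past the threshold in PI_PC against C_PC, 0 as reported, was 2 with DESeq2, 5 without the 3 libraries with conflicting identifiers, and 0 to 5 with each library left out in turn. The counts of 5 include LOC101251560, which entered the test through the PI groups and is a description only. In PI_HC against PI_PC, 1 as reported, it was 3 with DESeq2, 3 without the conflicting libraries, 0 with the compared groups alone and 0 to 3 with each library left out. In PI_HC against C_HC, 1 as reported, it was 0 with no low-count filter, 0 with at least 10 counts in every library, which removed LOC101251560, and 0 to 1 with each library left out. The 8-group count, 4 as reported, was 2 to 5 with each library left out. The difference between the PI effects gave 1 without the conflicting libraries, and FI_PC against C_PC gave 1 without the 3 libraries that stand apart. The other comparisons kept 0 under all alternatives. Of the 91 fold changes of the 7 genes in the 13 comparisons, 19 changed sign under at least 1 alternative other than leaving out single libraries, 12 of them without the conflicting libraries and 18 without the 3 libraries that stand apart. None of the 19 passed as reported or where the sign changed. The causes were not tested.

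With the replicate number as a block the count in PI_HC against C_HC was 0 (LOC101251560, log2 fold change 2.43, edgeR adjusted p = 0.0597) and the 8-group count was 3, with LOC101246241 at an adjusted p of 0.0706. The block changed no other call among the 7 genes, and the sulfate assimilation genes that fell in PI_HC against C_HC were 6 in place of 7. The numbers were not taken as pairs, because the correlation of same-numbered deviations exceeded 0.1 for every number in 1 of 28 pairs of groups. Depth limits the precision of LOC101251560, at 1 to 24 counts a library, and LOC101245940, at 11 to 60, and all genes carry the limit of 3 or 4 plants a group.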
